A study of Homo sapiens with 16 samples.

Results

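The 49 genes described here build autophagosomes or work in the lysosome. They were taken by symbol and all 49 were found among the 22916 genes of the deposited expression table, and 47 of them had enough counts to be tested among 17104 genes. They comprise 5 genes of the ATG8 family, 5 autophagy receptors, 6 genes of the initiation complexes, 4 of phagophore growth, 6 of ATG8 and ATG12 conjugation, 5 transcription factors of the MiT/TFE group or their regulators, 8 hydrolases, 5 proteins of the lysosomal membrane or of lipid export, 3 subunits of the proton pump and 2 RAB7 GTPases.

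RNA-seq was done on HCT116 cells, a human line from a colon cancer, in 4 groups of 4 libraries that cross 2 genotypes with 2 siRNA treatments. Truncation knockdown cells carried an edited, shortened Rpn10 and received OTUD5 siRNA, truncation scramble cells carried the same edit and received a scramble siRNA, WT knockdown cells were unedited and received OTUD5 siRNA, and WT scramble cells were unedited and received the scramble siRNA. Rpn10, the product of PSMD4, is a proteasome subunit that binds ubiquitin chains, and the edited form lacks the motif that does so; OTUD5 is a deubiquitinase. All groups were transfected with lipid reagent and 50 nM siRNA for 48 h, the OTUD5 siRNA being a mix of 4. For the 4 truncation knockdown libraries one label field names scramble and 2 others name OTUD5 siRNA, and their OTUD5 level, given below, was that of a knockdown. How many clones the edited cells came from, and whether replicates were separate cultures, is not given in the sources used here, so p-values measure the spread between libraries.

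Autophagy encloses cytoplasm in a growing membrane, the phagophore, which closes into an autophagosome and fuses with a lysosome, where acid hydrolases digest the content. ATG8 proteins are coupled to lipid on that membrane, and receptors such as SQSTM1 bind both ATG8 proteins and ubiquitin, which brings ubiquitin-tagged cargo into the same vesicle. The proteasome is the other main route by which cells break down tagged proteins, and transcription factors of the MiT/TFE group switch on many lysosomal and autophagy genes by binding CACGTG-type elements in their promoters.

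Levels are given as CPM, counts per 1000000 of a library's TMM-scaled total. Libraries held 28777244 to 29645663 counts in genes. OTUD5 averaged 20.7 ± 1.49 CPM in truncation knockdown, 94.9 ± 2.27 CPM in truncation scramble, 20.0 ± 2.05 CPM in WT knockdown and 88.5 ± 3.18 CPM in WT scramble (SD, n = 4 each). PSMD4 mRNA, which a truncation of the protein need not remove, averaged 321 and 202 CPM in truncation knockdown and scramble cells, and 263 and 236 CPM in WT knockdown and scramble cells. The epithelial markers EPCAM, KRT8, KRT18, KRT19, CDH1 and CDX2 were present in all 16 libraries, whereas VIL1 was near 0. EPCAM averaged 112 and 178 CPM in truncation knockdown and scramble cells, and 176 and 220 CPM in WT knockdown and scramble cells. In the same order of groups KRT8 averaged 3085, 2275, 2628 and 2164 CPM, and KRT18 688, 515, 481 and 486 CPM. KRT19 averaged 934, 1148, 1279 and 1287 CPM, CDH1 28.4, 28.5, 59.6 and 51.8 CPM, and CDX2 21.7, 21.4, 20.1 and 21.5 CPM. These markers thus did not move together. Among markers of fibroblasts, leukocytes and endothelium COL1A1 averaged 35.4 and 33.6 CPM in truncation knockdown and scramble cells, and 40.5 and 50.5 CPM in WT knockdown and scramble cells. By contrast COL1A2, PDGFRB, VWF, PECAM1 and CD3E each averaged at most 1.54 CPM in any group. WT knockdown replicate 2 stood furthest from its group, WT knockdown replicate 3 detected 32264 genes where the rest detected 25626 to 27765, and WT scramble replicate 4 had PTPRC, a leukocyte marker, at 11.7 CPM against at most 0.821 CPM elsewhere. The part of these differences in the results was not tested, and results that changed without 1 library are named where they occur. In bulk RNA, fewer cells of a kind and less RNA per cell cannot be told apart.

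Most members that differed between genotypes were higher in truncation cells. After OTUD5 knockdown, 28 of the 47 tested members (59.6%) were called higher in truncation than in WT cells and 4 (8.51%) lower, where 21.9% of all tested genes were called higher and 23.6% lower. With scramble siRNA, 26 members (55.3%) were called higher in truncation cells and 2 (4.26%) lower, against 21.6% and 22.4% of all genes. The median log2 fold change of the members was 0.29 with knockdown and 0.20 with scramble, against -0.0026 and -0.021 over all genes. Calls are adjusted p-values under 0.05 from edgeR's quasi-likelihood test, with Benjamini-Hochberg adjustment over all 17104 genes. The libraries of truncation and WT cells did not overlap for 26 members with knockdown, where 35.9% of all genes did not, and for 27 members with scramble, where 42.6% did not. These comparisons share no library: 25 members were called in the same direction in both, 24 of them higher, and no member was called in opposite directions. The share of all genes called in both was not counted, so this count has no background to be set against. Across the 47 members the fold changes of the genotype under the 2 siRNAs had a Pearson r of 0.947, against 0.759 across all tested genes, which are not independent replicates. All 47 were above the filter cutoff in every library, and all tested genes were not matched to them in level. The part of level in these shares and correlations, here and below, was not tested. The r without distant points such as RAB7B was not computed.

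OTUD5 knockdown moved members both ways. In truncation cells 18 of 47 members (38.3%) were called higher than with scramble and 12 (25.5%) lower, where 28.7% of all genes were called higher and 28.1% lower. In WT cells 19 members (40.4%) were called higher and 10 (21.3%) lower, against 25.2% and 25.1% of all genes. The shares called lower were thus near those of all genes. The median log2 fold changes were 0.054 in truncation and 0.036 in WT cells, against 0.023 and 0.0060 over all genes. Libraries did not overlap for 28 members in truncation cells, where 53.4% of all genes did not, and for 24 in WT cells, where 41.0% did not. Of the members called in both genotypes, 26 moved in the same direction, 17 higher and 9 lower, and none in opposite directions. The share of all genes called in both genotypes was not counted either. The Pearson r between the knockdown effects in truncation and WT cells was 0.874 across members and 0.774 across all genes. The difference of the knockdown effects, truncation minus WT (the interaction), was called for ATG12 (higher) and RAB7B (lower), where 2.05% of all genes were called higher and 3.65% lower. For every other member a call in only 1 genotype or under only 1 siRNA is not shown to differ from the other.

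**Figure D1:**
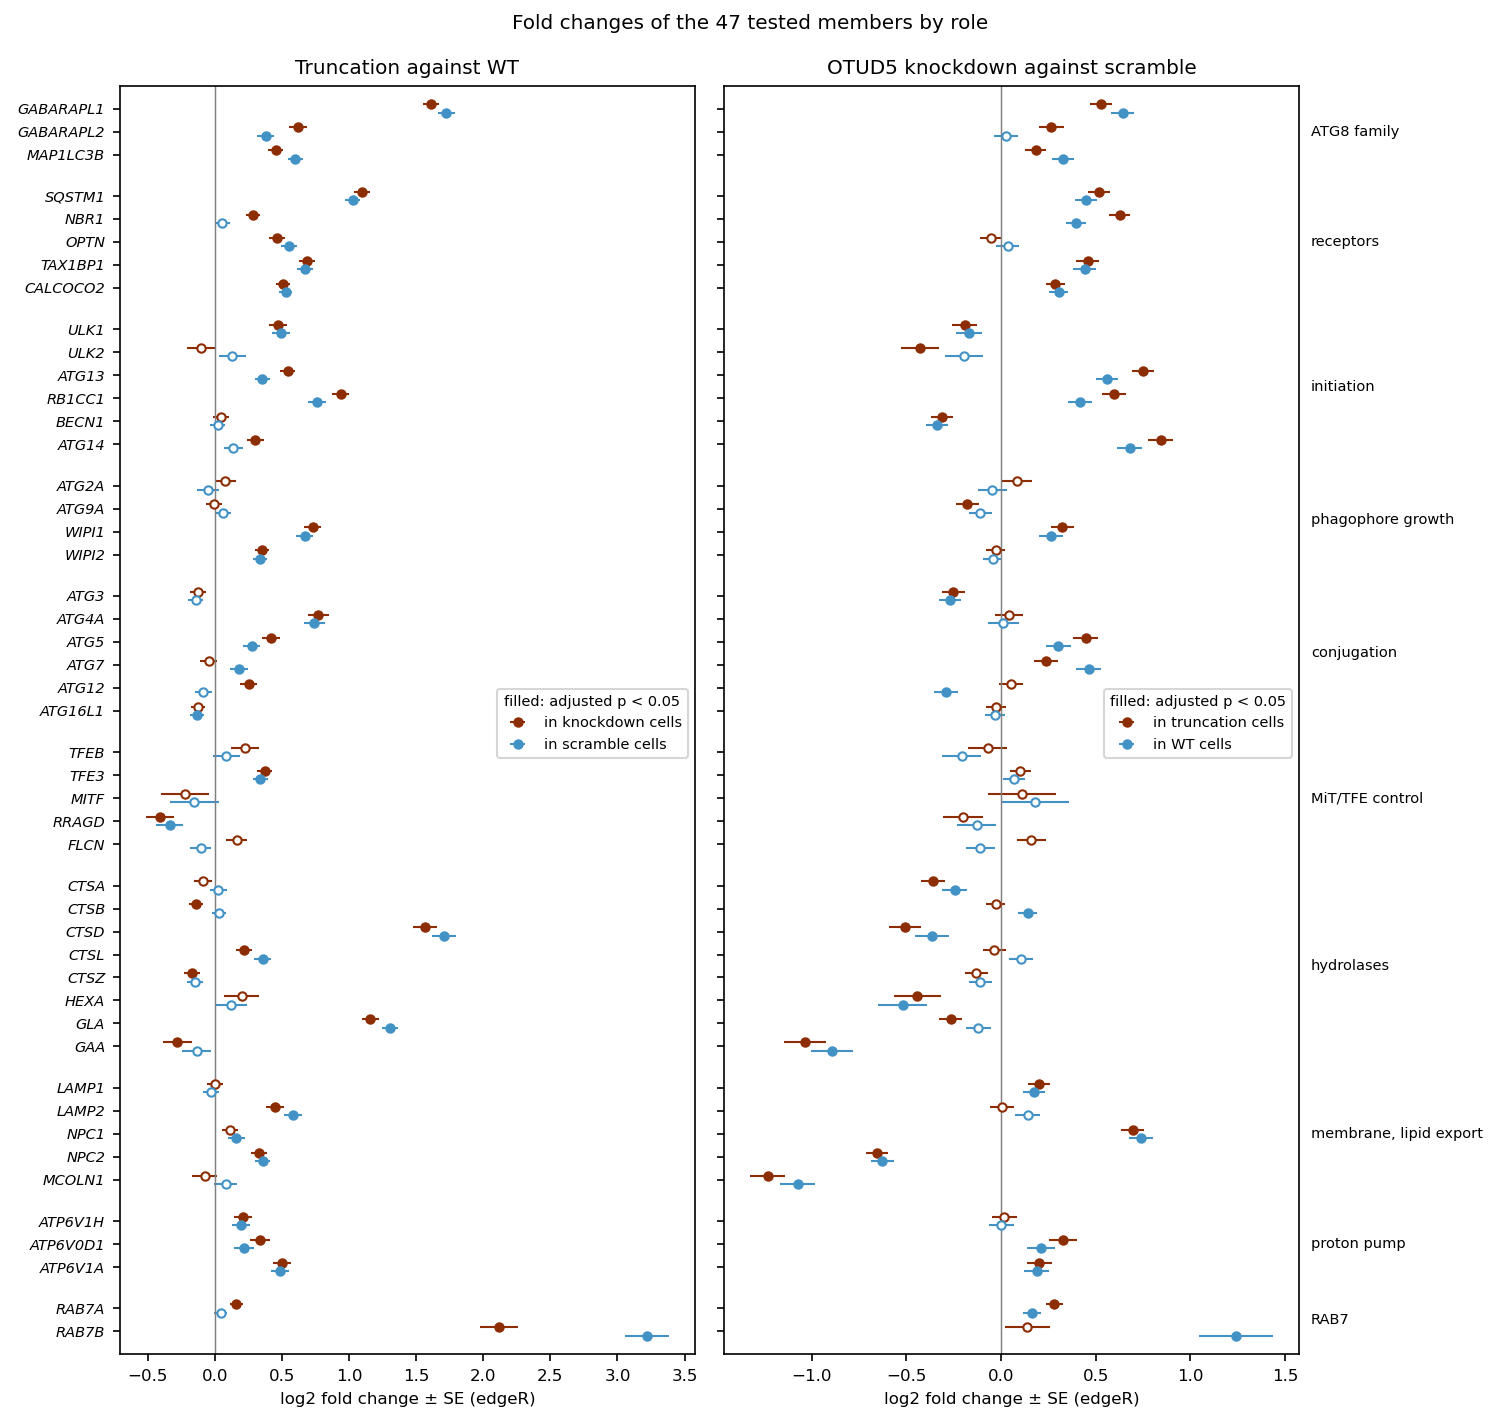
Log2 fold changes (edgeR, x axis) of the 47 tested members, grouped by role, for truncation against WT and for OTUD5 knockdown against scramble; bars are standard errors and filled points are called at an adjusted p under 0.05. GABARAPL1 (1.73), CTSD (1.71), GLA (1.31) and RAB7B (3.22) lie far to the right with scramble siRNA, and MCOLN1 (-1.07) and GAA (-0.89) far to the left after knockdown in WT cells.

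**Figure D2:**
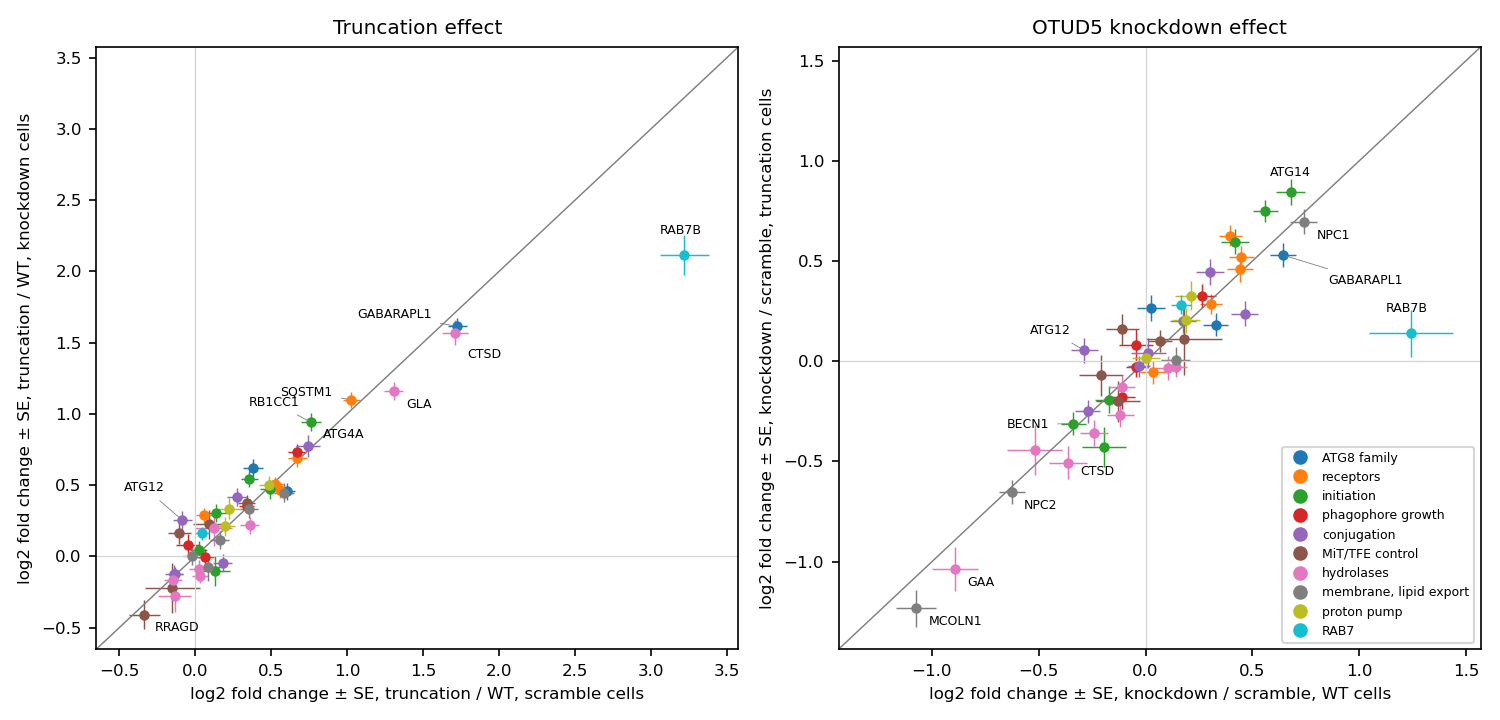
Log2 fold changes of the members in pairs of comparisons that share no library: the genotype effect under each siRNA, and the knockdown effect in each genotype; each point is 1 member. ATG12 and RAB7B, the 2 members called in the interaction, are labelled among the points away from the diagonal.

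All 3 tested members of the ATG8 family were higher in truncation than in WT cells under both siRNAs, and GABARAPL1, whose product is coupled to lipid on autophagosomes and aids their closure and transport, had the largest change (Ensembl ENSG00000139112, chromosome 12, 10212458 to 10223130, plus strand, GRCh38, as for all positions below). Of all genes, 21.9% and 21.6% were called higher in truncation cells with knockdown and with scramble. On knockdown 28.7% and 25.2% of all genes were called higher in truncation and WT cells. GABARAPL1 had 225, 229, 212 and 205 CPM in truncation knockdown libraries and 152, 157, 149 and 159 CPM in truncation scramble libraries. GABARAPL1 in WT cells had 74.5, 76.9, 64.2 and 71.1 CPM with knockdown and 42.3, 51.7, 46.0 and 44.8 CPM with scramble. The 4 groups were fully separated, in the order truncation knockdown, truncation scramble, WT knockdown, WT scramble. The level in truncation cells was 3.06 times that in WT cells with knockdown (log2 fold change 1.61 ± 0.060 SE, edgeR adjusted p = 1.34e-16) and 3.31 times with scramble (1.73 ± 0.061, adjusted p = 3.98e-17). Knockdown raised it by 0.53 ± 0.058 in truncation cells (adjusted p = 2.68e-08) and by 0.64 ± 0.061 in WT cells (adjusted p = 4.46e-09). MAP1LC3B had 165, 163, 155 and 142 CPM in truncation knockdown libraries and 138, 143, 138 and 145 CPM in truncation scramble libraries. MAP1LC3B in WT cells had 111, 129, 106 and 114 CPM with knockdown and 91.0, 92.7, 93.6 and 91.2 CPM with scramble. All 8 truncation libraries lay above all 8 WT libraries for this gene, which encodes LC3B, the protein most used to mark autophagosomes (ENSG00000140941, chromosome 16, 87383995 to 87404779, plus strand). Its log2 fold change between genotypes was 0.46 ± 0.057 with knockdown (edgeR adjusted p = 4.21e-07) and 0.60 ± 0.057 with scramble (adjusted p = 5.78e-09). Knockdown raised it by 0.18 ± 0.057 in truncation cells, where libraries overlapped, and by 0.33 ± 0.057 in WT cells, without overlap (edgeR adjusted p = 0.00805 and 3.76e-05). GABARAPL2 had 89.4, 84.9, 83.0 and 69.2 CPM in truncation knockdown libraries and 68.1, 68.9, 69.2 and 71.6 CPM in truncation scramble libraries. GABARAPL2 in WT cells had 53.7, 49.9, 54.0 and 56.3 CPM with knockdown and 53.1, 51.3, 56.1 and 51.1 CPM with scramble. Truncation libraries were again above all WT libraries, and the knockdown groups overlapped with their scramble groups in both genotypes. GABARAPL2, a paralogue also linked to transport in the Golgi, rose by 0.62 ± 0.065 with knockdown and 0.38 ± 0.065 with scramble in truncation against WT cells (edgeR adjusted p = 2.51e-08 and 4.05e-05). On knockdown it rose in truncation cells (0.27 ± 0.064, edgeR adjusted p = 0.00101), against 0.026 ± 0.066 in WT cells (adjusted p = 0.769). GABARAP itself had 3 to 11 counts and MAP1LC3A 0 to 8 counts per library, and neither was tested; 30.5% of the exonic bases of GABARAP overlap a gene on the same strand and 25.2% one on the opposite strand. How reads in such overlaps were counted is not given in the sources used here, so its low count and a low level cannot be equated. A transcript of MAP1LC3B2 matches MAP1LC3B at 97.3% over 601 bases, but had 976 counts over all libraries against 59180 for MAP1LC3B. The MAP1LC3B call in truncation cells was lost without truncation knockdown replicate 1 or 2 or truncation scramble replicate 1 or 3 (edgeR adjusted p up to 0.0747), and an interaction was called for GABARAPL2 without truncation knockdown replicate 4 (adjusted p = 0.0313).

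**Figure D3:**
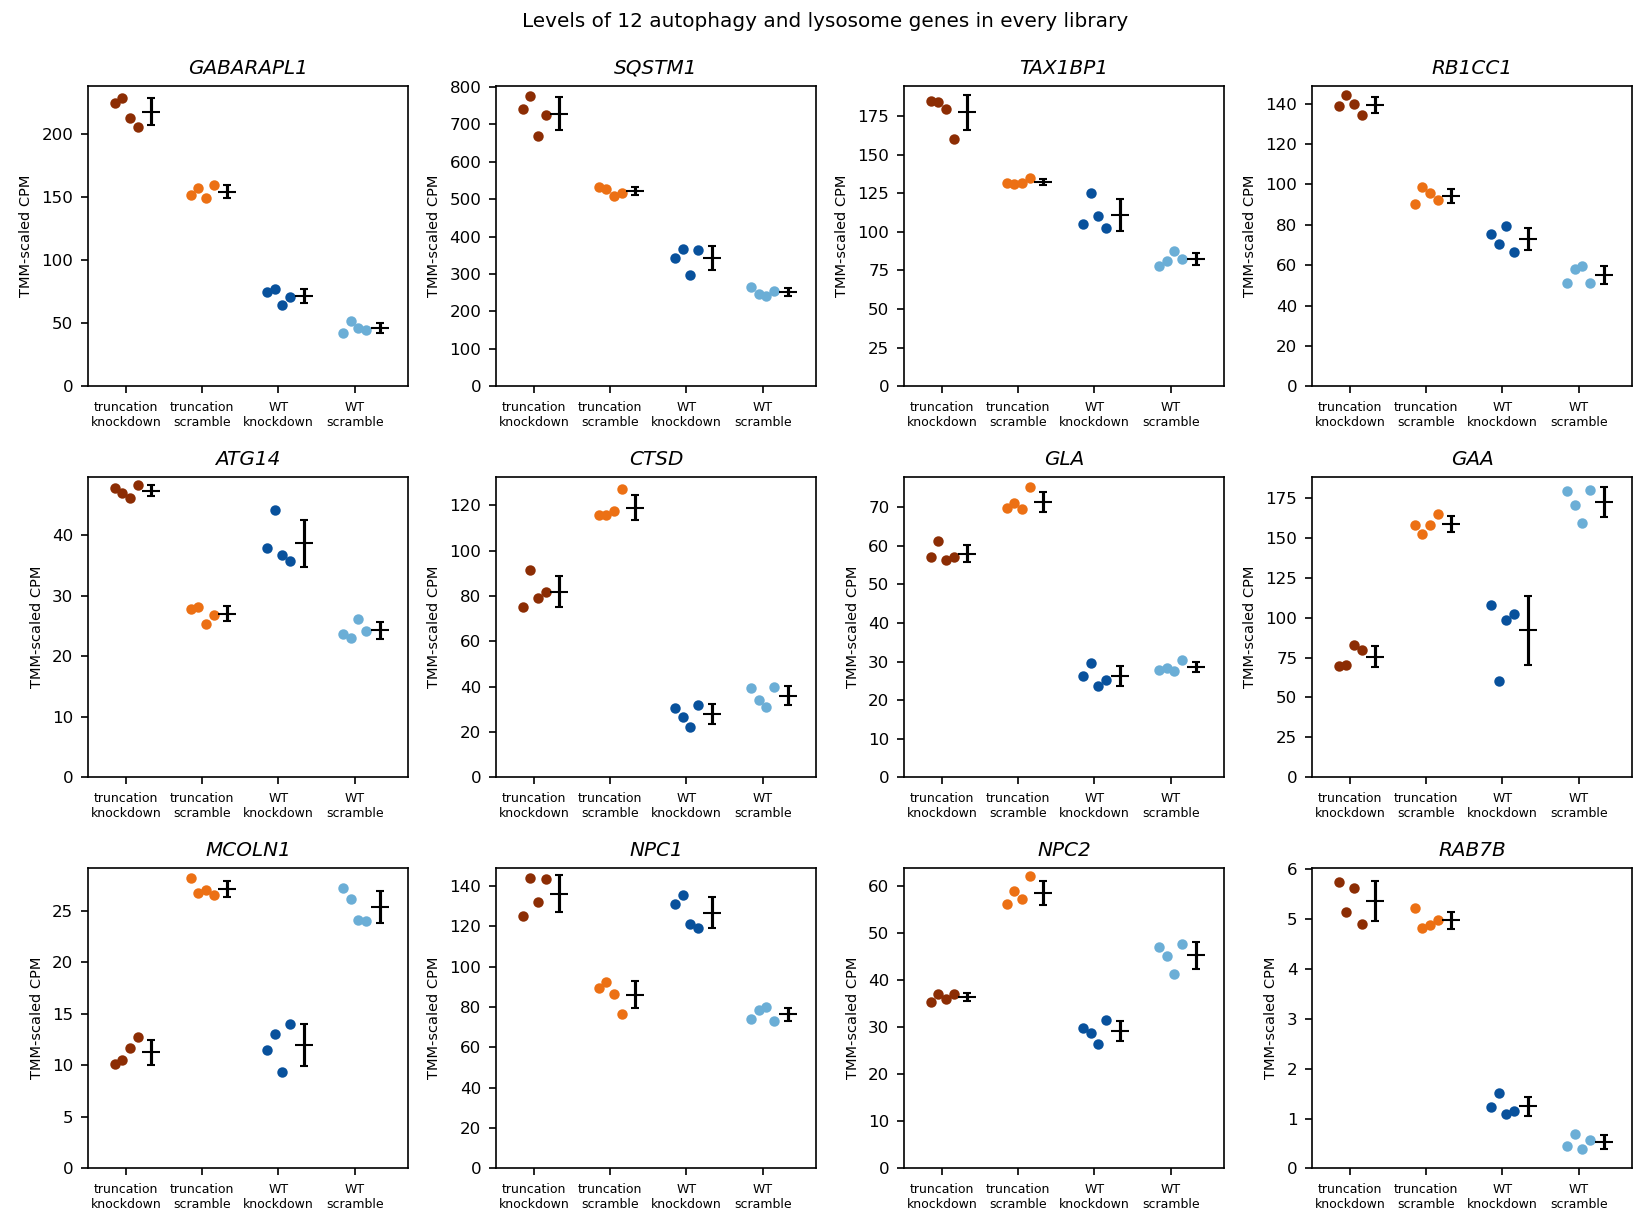
TMM-scaled CPM (y axis, from 0) of 12 members in each library, in the 4 groups truncation knockdown, truncation scramble, WT knockdown and WT scramble; dots are libraries, bars are the mean with its SD (n = 4). GABARAPL1 averages 218 CPM in truncation knockdown and 46.2 CPM in WT scramble cells, CTSD is high in both truncation groups, and GAA and MCOLN1 are low in both knockdown groups.

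The 5 autophagy receptors carry tagged cargo to ATG8 proteins; all 5 were higher in truncation cells with knockdown and 4 with scramble, and 4 rose on knockdown in each genotype. Of all genes, 21.9% and 21.6% were higher in truncation cells with knockdown and with scramble, and 28.7% and 25.2% higher on knockdown in truncation and WT cells. Their median log2 fold change between genotypes was 0.51 with knockdown and 0.56 with scramble, against -0.0026 and -0.021 over all genes. SQSTM1 (p62), which binds ubiquitin and ATG8 proteins, had the highest level per exonic kilobase among them (ENSG00000161011, chromosome 5, 179806398 to 179838078, plus strand). SQSTM1 had 742, 776, 669.7 and 725 CPM in truncation knockdown libraries and 531, 527, 508 and 517 CPM in truncation scramble libraries. SQSTM1 in WT cells had 343, 368, 296 and 364 CPM with knockdown and 266, 247, 242 and 256 CPM with scramble. The 4 groups were separated without overlap. Truncation cells exceeded WT cells by 1.10 ± 0.058 (log2) with knockdown, 2.14-fold, and by 1.03 ± 0.058 with scramble, 2.04-fold (edgeR adjusted p = 1.01e-13 and 3.44e-13). Knockdown added 0.52 ± 0.058 in truncation cells and 0.45 ± 0.058 in WT cells (edgeR adjusted p = 3.25e-08 and 5.74e-07). TAX1BP1 had 185, 184, 179.8 and 160.4 CPM in truncation knockdown libraries and 132, 131, 131 and 135 CPM in truncation scramble libraries. TAX1BP1 in WT cells had 105, 125, 110.1 and 103 CPM with knockdown and 77.8, 81.4, 87.3 and 82.2 CPM with scramble. Its groups were separated in the same order. TAX1BP1, a receptor for ubiquitin-tagged aggregates (ENSG00000106052, chromosome 7, 27739331 to 27844564, plus strand), rose by 0.69 ± 0.061 and 0.67 ± 0.061 in truncation against WT cells with knockdown and with scramble (edgeR adjusted p = 1.32e-09 and 2.47e-09), and on knockdown by 0.46 ± 0.060 in truncation and 0.44 ± 0.061 in WT cells (adjusted p = 4.98e-07 and 1.56e-06). OPTN had 42.4, 43.5, 39.5 and 40.1 CPM in truncation knockdown libraries and 42.6, 42.6, 43.4 and 47.3 CPM in truncation scramble libraries. OPTN in WT cells had 30.7, 31.8, 27.3 and 31.0 CPM with knockdown and 29.02, 30.0, 30.8 and 28.6 CPM with scramble. OPTN, optineurin, a receptor for mitochondria and bacteria, separated the genotypes and not the siRNAs. It rose by 0.47 ± 0.059 in truncation against WT cells with knockdown and 0.56 ± 0.059 with scramble (edgeR adjusted p = 4.93e-07 and 3.44e-08), while the knockdown log2 fold change was -0.054 ± 0.058 in truncation cells and 0.036 ± 0.060 in WT cells (adjusted p = 0.443 and 0.647). CALCOCO2 (NDP52), a receptor for bacteria and mitochondria, rose in the same 4 comparisons as TAX1BP1, with 0.51 and 0.53 between genotypes with knockdown and with scramble, and 0.29 and 0.31 on knockdown in truncation and WT cells, all called by edgeR. NBR1, an SQSTM1-like receptor, rose on knockdown by 0.63 ± 0.054 in truncation cells and 0.40 ± 0.054 in WT cells (edgeR adjusted p = 3.84e-10 and 1.17e-06); between genotypes it was higher in truncation cells with knockdown (0.29) and at 0.057, not called, with scramble. Its interaction of 0.23 ± 0.076 had an edgeR adjusted p of 0.0735, and of 0.0296 without WT knockdown replicate 2. Some of these exons overlap another gene on the opposite strand, for SQSTM1 20.7% (MRNIP, at 25.3 CPM on average) and for NBR1 5.51%; strand use in counting is not given in the sources used here, so such reads cannot be told apart.

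The initiation genes belong to 2 complexes: the ULK complex starts phagophore formation and the class III PI3 kinase makes the lipid PI3P on it. Of 6 genes, 4 were higher in truncation cells with knockdown and 3 with scramble, while knockdown raised 3 in both genotypes and lowered 3 in truncation and 2 in WT cells. Of all genes 21.9% and 21.6% were called higher in truncation cells with knockdown and with scramble, and on knockdown 28.7% were called higher and 28.1% lower in truncation cells and 25.2% and 25.1% in WT cells. RB1CC1 had 139, 144, 139.9 and 134 CPM in truncation knockdown libraries and 90.2, 98.5, 95.8 and 92.5 CPM in truncation scramble libraries. RB1CC1 in WT cells had 75.3, 70.7, 79.4 and 66.6 CPM with knockdown and 51.3, 58.0, 59.7 and 51.2 CPM with scramble. RB1CC1 (FIP200), the scaffold of the ULK complex (ENSG00000023287, chromosome 8, 52622456 to 52745843, minus strand), separated all 4 groups in the order seen for SQSTM1. It rose by 0.94 ± 0.063 and 0.76 ± 0.064 in truncation against WT cells with knockdown and with scramble, and by 0.60 ± 0.062 and 0.42 ± 0.064 on knockdown in truncation and WT cells (largest edgeR adjusted p = 6.30e-06). ULK1 had 65.9, 62.3, 62.7 and 70.2 CPM in truncation knockdown libraries and 76.5, 72.8, 79.0 and 77.1 CPM in truncation scramble libraries. ULK1 in WT cells had 50.3, 39.9, 50.2 and 49.3 CPM with knockdown and 55.8, 54.6, 53.6 and 51.1 CPM with scramble. ULK1, the kinase of the complex, was higher in all truncation than in all WT libraries and lower with knockdown than with scramble within each genotype. The genotype difference was 0.47 ± 0.068 with knockdown and 0.49 ± 0.068 with scramble (edgeR adjusted p = 3.71e-06 and 2.04e-06), and knockdown lowered it, with -0.19 ± 0.067 in truncation and -0.17 ± 0.069 in WT cells (adjusted p = 0.0178 and 0.0419). WT knockdown replicate 2 was lowest: without it the WT value was -0.094 (adjusted p = 0.196), and that call was also lost without WT scramble replicate 1, 2 or 3. Other settings that lost the WT call were no filter on low counts, a fit of the 2 groups compared and upper-quartile scaling. The call in truncation cells was lost under upper-quartile scaling (edgeR adjusted p = 0.0917). ATG13 had 129.8, 134, 119 and 116 CPM in truncation knockdown libraries and 75.2, 75.3, 75.6 and 77.5 CPM in truncation scramble libraries. ATG13 in WT cells had 87.5, 93.2, 76.8 and 86.9 CPM with knockdown and 58.6, 62.0, 58.2 and 56.2 CPM with scramble. Its groups did not overlap in any comparison. ATG13, the subunit that links ULK1 to RB1CC1, rose by 0.75 ± 0.057 on knockdown in truncation cells and 0.56 ± 0.057 in WT cells, and by 0.55 ± 0.056 and 0.36 ± 0.057 in truncation against WT cells with knockdown and with scramble (largest edgeR adjusted p = 1.82e-05). ATG14 had 47.7, 47.02, 46.2 and 48.3 CPM in truncation knockdown libraries and 27.8, 28.1, 25.3 and 26.8 CPM in truncation scramble libraries. ATG14 in WT cells had 37.8, 44.2, 36.8 and 35.7 CPM with knockdown and 23.7, 23.0, 26.2 and 24.2 CPM with scramble. ATG14, which directs the PI3 kinase to autophagosome sites (ENSG00000126775, chromosome 14, 55366392 to 55411858, minus strand), was high in both knockdown groups. Knockdown raised it 1.79-fold in truncation cells (0.84 ± 0.066) and 1.60-fold in WT cells (0.68 ± 0.067; edgeR adjusted p = 7.63e-11 and 8.06e-09). Between genotypes it was 0.30 ± 0.065 with knockdown, called, and 0.14 ± 0.068 with scramble (edgeR adjusted p = 0.100, and 0.0492 without WT scramble replicate 3). BECN1, the Beclin subunit of the same kinase, fell by 0.31 ± 0.058 in truncation and 0.34 ± 0.058 in WT cells on knockdown and was not called between genotypes (0.048 with knockdown, 0.021 with scramble); 12.4% of its exonic bases overlap CNTD1 on the opposite strand. ULK2, the paralogue of ULK1, fell in truncation cells (-0.43 ± 0.10, edgeR adjusted p = 0.000908), against -0.20 ± 0.10 in WT cells (adjusted p = 0.118, and 0.0252 at the lowest, without WT knockdown replicate 1 or WT scramble replicate 4).

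Among the genes of phagophore growth, WIPI proteins bind PI3P and recruit the conjugation machinery, ATG2A moves lipid into the phagophore, and ATG9A travels in vesicles that seed it; both WIPI genes were higher in truncation cells, and neither ATG2A nor ATG9A was called between genotypes. Of all genes, 21.9% and 21.6% were called higher in truncation cells with knockdown and with scramble. WIPI1 had 39.8, 39.7, 37.1 and 34.7 CPM in truncation knockdown libraries and 31.2, 32.7, 30.4 and 29.4 CPM in truncation scramble libraries. WIPI1 in WT cells had 23.7, 23.5, 22.2 and 22.5 CPM with knockdown and 18.05, 19.9, 20.1 and 19.0 CPM with scramble. All 4 groups were separated for WIPI1 (ENSG00000070540, chromosome 17, 68420948 to 68457513, minus strand). It rose by 0.73 ± 0.061 and 0.67 ± 0.062 in truncation against WT cells with knockdown and with scramble, and by 0.32 ± 0.060 and 0.26 ± 0.063 on knockdown in truncation and WT cells (largest edgeR adjusted p = 0.00110). WIPI2 had 108, 108, 103 and 101 CPM in truncation knockdown libraries and 109.9, 112, 104 and 112 CPM in truncation scramble libraries. WIPI2 in WT cells had 85.3, 79.2, 77.7 and 88.4 CPM with knockdown and 87.2, 85.0, 84.0 and 86.7 CPM with scramble. Truncation libraries lay above all WT libraries, while knockdown and scramble libraries overlapped in both genotypes. The genotype difference was 0.35 ± 0.050 with knockdown and 0.34 ± 0.050 with scramble (edgeR adjusted p = 2.60e-06 and 5.22e-06), and the knockdown value was -0.028 in truncation and -0.043 in WT cells, neither called. ATG2A lay between -0.050 and 0.083 in the 4 comparisons, with no call. ATG9A fell on knockdown in truncation cells (-0.18 ± 0.060, edgeR adjusted p = 0.0139), a call lost under upper-quartile scaling; 38.8% of its exonic bases overlap AC068946.2 on the same strand, which averaged 0.180 CPM. For WIPI1, 24.3% of exonic bases overlap ARSG on the opposite strand, at 9.38 CPM.

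In the conjugation of ATG8 and ATG12, ATG7 activates both proteins, ATG3 passes ATG8 to lipid, ATG4A trims and releases ATG8, and ATG12, ATG5 and ATG16L1 form the complex that speeds the transfer. Of these 6 genes, 3 were higher in truncation cells with knockdown, and 3 higher and 1 lower with scramble, where 21.9% of all genes were higher with knockdown, and 21.6% higher and 22.4% lower with scramble. ATG4A had 22.1, 21.1, 20.3 and 18.1 CPM in truncation knockdown libraries and 19.1, 20.7, 22.1 and 19.3 CPM in truncation scramble libraries. ATG4A in WT cells had 11.2, 13.3, 11.5 and 12.1 CPM with knockdown and 11.2, 12.3, 12.5 and 11.97 CPM with scramble. ATG4A (ENSG00000101844, chromosome X, 108091668 to 108154671, plus strand) separated the genotypes fully and not the siRNAs, with 0.77 ± 0.078 and 0.74 ± 0.078 in truncation against WT cells with knockdown and with scramble (edgeR adjusted p = 1.27e-08 and 2.82e-08) and 0.041 and 0.013 on knockdown in truncation and WT cells. ATG5 had 79.2, 74.2, 73.5 and 62.0 CPM in truncation knockdown libraries and 53.6, 54.3, 54.0 and 55.0 CPM in truncation scramble libraries. ATG5 in WT cells had 52.2, 58.0, 54.7 and 52.6 CPM with knockdown and 41.5, 43.6, 47.1 and 45.4 CPM with scramble. Its groups did not overlap in any comparison. ATG5 rose by 0.42 ± 0.064 and 0.27 ± 0.065 between genotypes with knockdown and with scramble, and by 0.45 ± 0.064 and 0.30 ± 0.065 on knockdown in truncation and WT cells (largest edgeR adjusted p = 0.00139). ATG7 had 33.2, 34.8, 31.9 and 30.6 CPM in truncation knockdown libraries and 28.7, 28.0, 26.8 and 29.8 CPM in truncation scramble libraries. ATG7 in WT cells had 35.0, 35.6, 30.2 and 35.0 CPM with knockdown and 26.7, 23.6, 23.5 and 25.3 CPM with scramble. The highest levels were those of the knockdown groups. Knockdown raised ATG7 by 0.24 ± 0.064 in truncation and 0.46 ± 0.064 in WT cells (edgeR adjusted p = 0.00263 and 1.66e-06); between genotypes it was -0.046 ± 0.063 with knockdown (adjusted p = 0.588) and 0.18 ± 0.065 with scramble (adjusted p = 0.0278). The scramble call was lost on leaving out truncation scramble replicate 4, or replicate 2 or 3 of WT scramble (adjusted p up to 0.0902), and 18.1% of ATG7 exonic bases overlap VGLL4 on the opposite strand, at 27.8 CPM.

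ATG12 had 149, 137, 143 and 128 CPM in truncation knockdown libraries and 132, 144, 133 and 140.1 CPM in truncation scramble libraries. ATG12 in WT cells had 109.5, 133, 118 and 109 CPM with knockdown and 141, 141, 155 and 141 CPM with scramble. ATG12 (ENSG00000145782, chromosome 5, 115828200 to 115841858, minus strand) overlapped between the truncation groups, whereas WT knockdown libraries lay below WT scramble. The knockdown value was 0.054 ± 0.063 in truncation cells (edgeR adjusted p = 0.487), and in WT cells knockdown lowered it, with -0.29 ± 0.063 (adjusted p = 0.000507). The difference of these effects, 0.34 ± 0.089, was called (edgeR adjusted p = 0.0239). It was lost without WT knockdown replicate 1 or 4, truncation knockdown replicate 1 or 3, or truncation scramble replicate 1 or 3, with an adjusted p of at most 0.0722. With knockdown, ATG12 was higher in truncation than in WT cells (0.25 ± 0.063), and with scramble the value was -0.087 ± 0.063, not called. An ATG12 transcript shares 378 bases at 100% identity with AP3S1 and 419 bases at 96.2% with AC025198.1. ATG3 fell on knockdown, with -0.25 in truncation and -0.27 in WT cells, and between genotypes was -0.14 with scramble (edgeR adjusted p = 0.0504, and 0.0316 at the lowest, without WT knockdown replicate 2 or WT scramble replicate 2). ATG16L1 was -0.12 in truncation against WT cells with knockdown, not called (adjusted p = 0.0556, and 0.0133 at the lowest, without WT knockdown replicate 3 or truncation knockdown replicate 2). With scramble it fell (-0.13 ± 0.052, adjusted p = 0.0458), a call lost in 14 of 16 fits that leave out 1 library (adjusted p up to 0.146).

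The transcription factors TFEB, TFE3 and MITF are held in the cytoplasm by mTORC1 at the lysosome, where the GTPase RRAGD and its activator FLCN take part; RRAGD is itself a known target of these factors. In the fit of all 16 libraries none of the 5 genes was called on knockdown in either genotype by edgeR or DESeq2, and the only unadjusted edgeR p under 0.05 was 0.0488, for FLCN in truncation cells. By edgeR 28.7% of all genes were called higher and 28.1% lower on knockdown in truncation cells, and 25.2% and 25.1% in WT cells. Between genotypes TFE3 was higher and RRAGD lower in truncation cells under each siRNA. TFE3 had 46.9, 48.1, 45.1 and 45.4 CPM in truncation knockdown libraries and 46.3, 43.4, 44.5 and 42.7 CPM in truncation scramble libraries. TFE3 in WT cells had 35.9, 37.4, 32.7 and 38.2 CPM with knockdown and 33.2, 36.2, 34.3 and 34.8 CPM with scramble. All truncation libraries were above all WT libraries. TFE3 rose by 0.37 ± 0.056 and 0.34 ± 0.056 in truncation against WT cells with knockdown and with scramble (edgeR adjusted p = 5.44e-06 and 2.42e-05). RRAGD had 20.3, 19.2, 22.4 and 18.6 CPM in truncation knockdown libraries and 21.8, 23.7, 25.3 and 23.8 CPM in truncation scramble libraries. RRAGD in WT cells had 32.1, 19.3, 29.8 and 26.2 CPM with knockdown and 29.3, 29.1, 30.7 and 29.2 CPM with scramble. RRAGD was lower in truncation cells, without overlap with scramble siRNA and with overlap after knockdown. The log2 fold changes were -0.41 ± 0.10 and -0.34 ± 0.10 with knockdown and with scramble (edgeR adjusted p = 0.00226 and 0.0100). TFEB averaged 9.28 ± 0.457 CPM in truncation knockdown, 9.98 ± 0.923 CPM in truncation scramble, 8.01 ± 1.44 CPM in WT knockdown and 9.30 ± 0.521 CPM in WT scramble cells (SD, n = 4 each), with 0.22 ± 0.10 and 0.087 ± 0.10 between genotypes with knockdown and with scramble. MITF was -0.22 ± 0.18 and -0.15 ± 0.18, and FLCN 0.16 ± 0.077 and -0.10 ± 0.078, with knockdown and with scramble. Under alternatives some of these passed. In truncation cells knockdown calls were made for FLCN and TFE3 under upper-quartile scaling, and for RRAGD with no filter on low counts and in a fit of the 2 groups compared. Without 1 library others passed: TFEB on knockdown in WT cells and between genotypes with knockdown without WT knockdown replicate 1 (edgeR adjusted p = 0.0241 and 0.0252), FLCN between genotypes with knockdown without WT knockdown replicate 4 (0.0375), and RRAGD on knockdown in truncation cells without WT knockdown replicate 2 or truncation knockdown replicate 3 (0.0176 at the lowest).

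Of the 8 lysosomal hydrolases, CTSD, GLA and CTSL were higher in truncation cells under both siRNAs, and knockdown lowered GAA, HEXA, CTSA and CTSD in both genotypes. With knockdown 3 (37.5%) were higher in truncation cells and 3 lower, against 21.9% and 23.6% of all genes, and with scramble 3 were higher and none lower, against 21.6% and 22.4%. Knockdown lowered 5 in truncation cells, and lowered 4 and raised 1 in WT cells, where 28.1% and 25.1% of all genes were lower in truncation and WT cells. The hydrolases had a median log2 fold change of -0.31 in truncation and -0.18 in WT cells against 0.023 and 0.0060 over all genes. CTSD had 75.1, 91.4, 79.2 and 81.7 CPM in truncation knockdown libraries and 116, 116, 117 and 127 CPM in truncation scramble libraries. CTSD in WT cells had 30.7, 26.4, 22.4 and 31.9 CPM with knockdown and 39.2, 34.3, 30.9 and 39.7 CPM with scramble. CTSD, cathepsin D, the main aspartic protease of the lysosome (ENSG00000117984, chromosome 11, 1752752 to 1764573, minus strand), was high in all 8 truncation libraries. Truncation cells had 2.96 times the WT level with knockdown (1.57 ± 0.088, edgeR adjusted p = 3.38e-13) and 3.27 times with scramble (1.71 ± 0.087, adjusted p = 4.39e-14). Knockdown lowered it, with -0.51 ± 0.083 in truncation cells and -0.36 ± 0.090 in WT cells (edgeR adjusted p = 1.24e-05 and 0.00148); the WT libraries overlapped. A gene on the same strand, AC068580.4, covers 41.7% of CTSD exonic bases and had 0.252 CPM on average. GLA had 57.2, 61.1, 56.4 and 57.1 CPM in truncation knockdown libraries and 69.7, 71.0, 69.5 and 75.3 CPM in truncation scramble libraries. GLA in WT cells had 26.2, 29.7, 23.6 and 25.1 CPM with knockdown and 27.9, 28.4, 27.6 and 30.5 CPM with scramble. GLA, alpha-galactosidase A (ENSG00000102393, chromosome X, 101397803 to 101408012, minus strand), was likewise high in all truncation libraries, 2.23-fold with knockdown (1.16 ± 0.062) and 2.47-fold with scramble (1.31 ± 0.062; edgeR adjusted p = 1.33e-13 and 1.15e-14). Knockdown lowered it in truncation cells (-0.27 ± 0.059, adjusted p = 0.000466), against -0.12 ± 0.064 in WT cells (adjusted p = 0.126, and 0.0140 without WT knockdown replicate 2). CTSL had 67.2, 77.8, 70.4 and 68.0 CPM in truncation knockdown libraries and 76.7, 71.2, 73.3 and 76.0 CPM in truncation scramble libraries. CTSL in WT cells had 59.7, 67.0, 54.9 and 63.9 CPM with knockdown and 57.6, 53.8, 56.8 and 61.6 CPM with scramble. CTSL, the cysteine protease cathepsin L, separated the genotypes and not the siRNAs. It rose by 0.22 ± 0.061 and 0.36 ± 0.062 in truncation against WT cells with knockdown and with scramble (edgeR adjusted p = 0.00531 and 4.31e-05).

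GAA had 69.7, 70.3, 82.6 and 79.4 CPM in truncation knockdown libraries and 158, 153, 158 and 165 CPM in truncation scramble libraries. GAA in WT cells had 108, 60.2, 98.5 and 102 CPM with knockdown and 179, 171, 159 and 180.2 CPM with scramble. GAA, the acid alpha-glucosidase that breaks down glycogen (ENSG00000171298, chromosome 17, 80101556 to 80119879, plus strand), was low in both knockdown groups and its genotypes overlapped. Knockdown cut it to 0.488 of the scramble level in truncation cells (-1.04 ± 0.11) and to 0.539 in WT cells (-0.89 ± 0.11; edgeR adjusted p = 1.52e-08 and 2.45e-07). Between genotypes it was -0.28 ± 0.11 with knockdown (adjusted p = 0.0418) and -0.14 ± 0.11, not called, with scramble. The genotype value with knockdown depended on the library: it was -0.44 without WT knockdown replicate 2, and the call was lost without WT knockdown replicate 1, 3 or 4 or truncation knockdown replicate 1 or 2 (adjusted p up to 0.152). This call was also lost by DESeq2, under upper-quartile scaling and in a fit of the 2 groups compared. The interaction of -0.14 ± 0.15 was not called (adjusted p = 0.668) but was without WT knockdown replicate 2 (0.0230). HEXA, the alpha subunit of beta-hexosaminidase, fell on knockdown by 0.44 ± 0.12 in truncation and 0.52 ± 0.13 in WT cells without overlap of libraries, and CTSA, a carboxypeptidase that stabilises other enzymes, by 0.36 ± 0.066 and 0.24 ± 0.066. Neither HEXA nor CTSA was called between genotypes. HEXA was at a low level, with 69 to 135 counts per library. Of its exonic bases, 10.1% overlap AC009690.2 on the opposite strand, and the part of this overlap in its count was not tested. CTSB, cathepsin B, was -0.14 between genotypes with knockdown and rose by 0.14 on knockdown in WT cells; the first call was lost without WT knockdown replicate 1 or 4 or truncation knockdown replicate 1 or 4 (edgeR adjusted p up to 0.104) and the second without WT knockdown replicate 1 or 4 or WT scramble replicate 1 or 2 (up to 0.121). CTSZ, cathepsin Z, was -0.17 between genotypes with knockdown (lost without WT knockdown replicate 1 or 4 or truncation knockdown replicate 3, up to 0.124). The genotype effect with scramble and the knockdown effects were not called in the fit of all libraries. With the replicate block, in a fit of the 2 groups compared and without WT knockdown replicates 2 and 3, CTSZ passed for the genotype with scramble and for knockdown in truncation cells, and under upper-quartile scaling for the genotype with scramble. It also passed in all 3 without some single libraries (lowest adjusted p 0.0231 for the genotype with scramble, 0.0333 and 0.0282 for knockdown in truncation and WT cells). Leaving out WT knockdown replicates 2 and 3 together removed the WT knockdown calls of CTSD and CTSA.

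In the group of membrane and lipid export proteins, NPC2 and NPC1 hand cholesterol in turn out of the lysosome, LAMP1 and LAMP2 coat its membrane, and MCOLN1 is its calcium channel. LAMP2 and NPC2 were higher in truncation cells under both siRNAs, and knockdown raised NPC1 and LAMP1 and lowered NPC2 and MCOLN1 in both genotypes. Of all genes, 21.9% and 21.6% were called higher in truncation cells with knockdown and with scramble. On knockdown 28.7% of all genes were called higher and 28.1% lower in truncation cells, and 25.2% and 25.1% in WT cells. MCOLN1 had 10.1, 10.5, 11.6 and 12.8 CPM in truncation knockdown libraries and 28.2, 26.7, 27.0 and 26.5 CPM in truncation scramble libraries. MCOLN1 in WT cells had 11.5, 13.0, 9.36 and 14.04 CPM with knockdown and 27.1, 26.1, 24.0 and 24.0 CPM with scramble. MCOLN1 (ENSG00000090674, chromosome 19, 7522626 to 7534009, plus strand) was low in all 8 knockdown libraries. Knockdown left 0.426 of the scramble level in truncation cells (-1.23 ± 0.091) and 0.475 in WT cells (-1.07 ± 0.091; edgeR adjusted p = 2.88e-11 and 7.32e-10), the most negative changes among members in either genotype. Between genotypes libraries overlapped, with -0.076 ± 0.10 and 0.083 ± 0.086 with knockdown and with scramble, neither called. NPC1 had 125, 144, 132 and 143 CPM in truncation knockdown libraries and 89.3, 92.2, 86.2 and 76.6 CPM in truncation scramble libraries. NPC1 in WT cells had 131, 135, 121 and 119 CPM with knockdown and 73.8, 78.6, 79.8 and 73.2 CPM with scramble. All knockdown libraries exceeded the scramble libraries of the same genotype. NPC1 (ENSG00000141458, chromosome 18, 23506184 to 23586898, minus strand) rose 1.62-fold in truncation cells (0.70 ± 0.062) and 1.67-fold in WT cells (0.74 ± 0.063; edgeR adjusted p = 8.06e-10 and 6.45e-10). Its genotype difference of 0.16 ± 0.063 with scramble (adjusted p = 0.0421) was lost without any one of WT scramble replicates 1, 2 and 4 or truncation scramble replicates 1, 2 and 3 (up to 0.120), and 5.98% of its exonic bases overlap RMC1 on the opposite strand, at 34.1 CPM. NPC2 had 35.3, 37.1, 36.0 and 37.1 CPM in truncation knockdown libraries and 56.2, 58.8, 57.3 and 62.1 CPM in truncation scramble libraries. NPC2 in WT cells had 29.8, 28.7, 26.5 and 31.6 CPM with knockdown and 47.003, 45.1, 41.4 and 47.8 CPM with scramble. NPC2 (ENSG00000119655, chromosome 14, 74476192 to 74494177, minus strand) had no overlap in any comparison and moved opposite to NPC1 on knockdown. It fell by 0.65 ± 0.060 in truncation and 0.63 ± 0.061 in WT cells, and was higher in truncation than in WT cells by 0.33 ± 0.061 with knockdown and 0.36 ± 0.059 with scramble (largest edgeR adjusted p = 8.77e-05). LAMP2 had 93.9, 102, 106 and 94.8 CPM in truncation knockdown libraries and 101, 106, 102 and 95.4 CPM in truncation scramble libraries. LAMP2 in WT cells had 71.5, 72.2, 80.9 and 67.5 CPM with knockdown and 60.7, 66.0, 72.6 and 67.9 CPM with scramble. LAMP2, which also serves chaperone-mediated autophagy, separated the genotypes (0.45 ± 0.066 with knockdown, 0.58 ± 0.066 with scramble, edgeR adjusted p = 4.25e-06 and 9.70e-08); on knockdown it was 0.0046 in truncation and 0.14 in WT cells, not called (0.0311 at the lowest in WT cells, without WT knockdown replicate 4 or WT scramble replicate 3). LAMP1 rose on knockdown by 0.20 ± 0.059 in truncation and 0.18 ± 0.059 in WT cells; these calls were lost without truncation knockdown replicate 2 (edgeR adjusted p = 0.0647) and without WT knockdown replicate 2 or WT scramble replicate 2 (up to 0.0635).

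Promoter windows of the members were searched for sequence elements with the fold changes known. The search found an element shared by GAA and MCOLN1, which fell most on knockdown, and by members that rose. RefSeq gives 54 promoter windows (250 bases before to 50 after the start, GRCh38.p14) for 41 of the 49 members, and none for CTSB, RRAGD, ATP6V1H, ATP6V1A, LAMP2, MAP1LC3A, RB1CC1 and HEXA. Both strands were searched for CACGTG, the E-box read by MiT/TFE and other factors, for TCACGTGA, a palindrome that contains it, and for TGACNNNGC, the core of the antioxidant response element. CACGTG was found in 8 of the 41 members, TCACGTGA in 6 and TGACNNNGC in 11. Among all 35116 promoters, CACGTG was in 7.26%, TCACGTGA in 0.980% and TGACNNNGC in 13.3%, and promoters of tested genes held them more often (9.06%, 1.54% and 14.6%). A gene can have several windows, so members compare with genes: CACGTG was in 8 of 40 tested members, against 12.2% of the 11758 tested genes with a window, TCACGTGA in 6 of 40, against 2.06%, and TGACNNNGC in 11 of 40 (27.5%), against 19.3%. The members were chosen as autophagy and lysosome genes, a group known for CACGTG-type elements, so the first 2 shares are no independent result. The 6 are GAA, MCOLN1, LAMP1, ATP6V0D1, CTSA and ATG3, and ATG14 and CTSD have CACGTG without the longer form; TGACNNNGC was in ATP6V0D1, CALCOCO2, CTSA, CTSD, CTSL, CTSZ, GAA, GLA, LAMP1, MAP1LC3B and NPC2. The windows of the members that fell most and of those that rose follow, 5′ to 3′ on the gene's strand, with capitals for CACGTG and TCACGTGA. GAA lies at chr17:80101331-80101630 on the plus strand, MCOLN1 at chr19:7522374-7522673 on the plus strand, LAMP1 at chr13:113296989-113297288 on the plus strand and ATP6V0D1 at chr16:67481108-67481407 on the minus strand.
GAA: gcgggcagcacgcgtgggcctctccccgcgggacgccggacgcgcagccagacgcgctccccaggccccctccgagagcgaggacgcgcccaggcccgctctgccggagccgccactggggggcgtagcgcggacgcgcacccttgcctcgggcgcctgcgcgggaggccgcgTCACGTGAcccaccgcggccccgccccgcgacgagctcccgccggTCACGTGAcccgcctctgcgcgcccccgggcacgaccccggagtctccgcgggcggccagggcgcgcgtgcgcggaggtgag
MCOLN1: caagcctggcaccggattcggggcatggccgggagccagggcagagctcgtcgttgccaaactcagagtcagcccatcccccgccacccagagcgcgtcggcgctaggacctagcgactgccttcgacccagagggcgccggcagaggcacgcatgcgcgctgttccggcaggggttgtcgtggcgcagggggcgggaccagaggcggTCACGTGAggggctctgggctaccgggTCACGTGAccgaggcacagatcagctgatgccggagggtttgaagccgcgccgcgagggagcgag
LAMP1: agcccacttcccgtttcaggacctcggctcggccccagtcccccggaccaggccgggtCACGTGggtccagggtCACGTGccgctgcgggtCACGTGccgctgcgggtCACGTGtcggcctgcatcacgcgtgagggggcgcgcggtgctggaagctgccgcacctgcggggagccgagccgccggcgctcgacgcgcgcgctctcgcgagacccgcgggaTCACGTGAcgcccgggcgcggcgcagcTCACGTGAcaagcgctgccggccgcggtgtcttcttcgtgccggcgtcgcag
ATP6V0D1: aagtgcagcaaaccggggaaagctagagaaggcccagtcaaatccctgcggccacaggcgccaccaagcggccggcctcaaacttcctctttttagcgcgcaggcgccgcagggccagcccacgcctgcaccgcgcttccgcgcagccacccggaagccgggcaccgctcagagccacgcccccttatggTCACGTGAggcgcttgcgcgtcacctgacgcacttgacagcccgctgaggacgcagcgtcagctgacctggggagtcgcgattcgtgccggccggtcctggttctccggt

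In GAA the copies of TCACGTGA begin 77 and 32 bases before the start, in MCOLN1 42 and 15 bases, in LAMP1 29 and 2 bases, and in ATP6V0D1 60 bases. LAMP1 has 6 copies of CACGTG in all. Carriers of the same element thus moved both ways on knockdown: GAA (-1.04 in truncation and -0.89 in WT cells), MCOLN1 (-1.23 and -1.07), CTSA (-0.36 and -0.24) and ATG3 (-0.25 and -0.27) fell, and LAMP1 (0.20 and 0.18) and ATP6V0D1 (0.33 and 0.21) rose. Over all 242 tested genes with TCACGTGA, 36.0% were called higher and 32.6% lower on knockdown in truncation cells, against 30.6% and 31.0% of the 11516 without it. In WT cells 36.0% were called higher and 25.6% lower, against 28.2% and 26.8%. The medians were 0.040 with and 0.013 without it in truncation cells, and 0.029 and 0.016 in WT cells. MCOLN1 and GAA lay below the 5th percentile of genes with the element in both genotypes (-0.94 in truncation, -0.70 in WT cells). On knockdown, genes with CACGTG were called lower more often than those without it, and genes with TGACNNNGC were near those without it. Neither difference was tested. Of the 1431 tested genes with CACGTG, 28.9% were called higher and 34.2% lower on knockdown in truncation cells, against 30.9% and 30.6% of the 10327 without it, and in WT cells 27.2% and 30.2%, against 28.5% and 26.3%. Their medians were -0.031 with and 0.018 without CACGTG in truncation cells, and -0.0083 and 0.019 in WT cells. Of the 2274 with TGACNNNGC, 31.1% were called higher and 31.2% lower in truncation cells, against 30.6% and 30.9% of the 9484 without it, and in WT cells 29.2% and 27.4%, against 28.1% and 26.6%. A match describes letters in a window and is no measured binding.

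**Figure D4:**
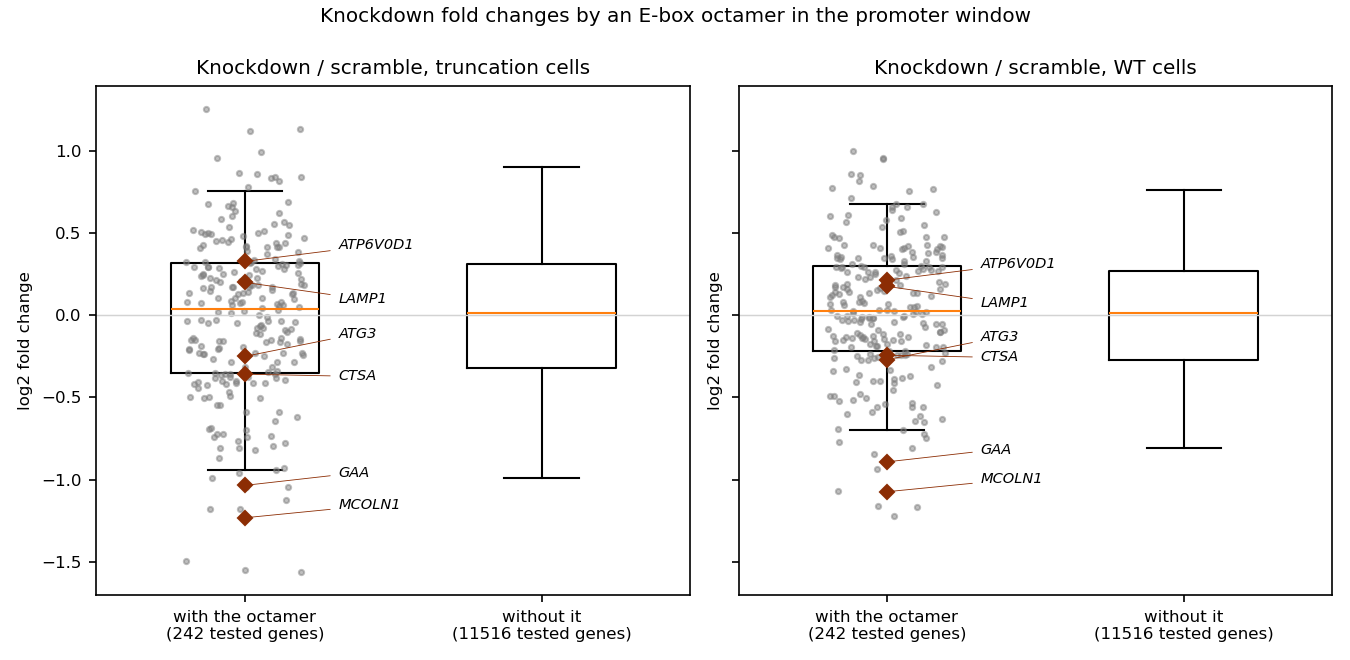
Log2 fold changes on OTUD5 knockdown in truncation and WT cells for tested genes with TCACGTGA in the promoter window (242) and without it (11516); boxes show quartiles with the median, whiskers the 5th and 95th percentiles, and diamonds the 6 members with the element. GAA and MCOLN1 lie below the lower whisker in both genotypes, while LAMP1 and ATP6V0D1 lie above 0.

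The V-ATPase is the proton pump that acidifies the lysosome. All 3 subunit genes were higher in truncation cells under both siRNAs, and knockdown raised 2 of them in both genotypes, by small amounts. Of all genes, 21.9% and 21.6% were called higher in truncation cells with knockdown and with scramble. On knockdown 28.7% and 25.2% of all genes were called higher in truncation and WT cells. ATP6V1A had 112, 109.6, 116 and 97.3 CPM in truncation knockdown libraries and 99.1, 101, 95.4 and 90.2 CPM in truncation scramble libraries. ATP6V1A in WT cells had 77.2, 78.3, 83.4 and 69.7 CPM with knockdown and 62.6, 70.7, 71.2 and 68.3 CPM with scramble. ATP6V1A, the catalytic subunit, was higher in all truncation than in all WT libraries (0.50 ± 0.065 with knockdown, 0.49 ± 0.066 with scramble, edgeR adjusted p = 7.46e-07 and 1.42e-06). On knockdown, with overlap, it rose by 0.20 ± 0.065 in truncation and 0.19 ± 0.066 in WT cells (adjusted p = 0.00945 and 0.0190). ATP6V0D1 had 103, 109, 92.0 and 95.5 CPM in truncation knockdown libraries and 80.7, 83.6, 77.7 and 83.6 CPM in truncation scramble libraries. ATP6V0D1 in WT cells had 79.9, 87.3, 66.3 and 85.5 CPM with knockdown and 71.3, 63.5, 64.0 and 77.8 CPM with scramble. Truncation knockdown libraries were the highest. ATP6V0D1, a subunit of the membrane part, rose by 0.34 ± 0.074 and 0.22 ± 0.074 in truncation against WT cells with knockdown and with scramble, and by 0.33 ± 0.074 and 0.21 ± 0.074 on knockdown in truncation and WT cells (largest edgeR adjusted p = 0.0194). ATP6V1H had 49.2, 48.7, 45.1 and 42.5 CPM in truncation knockdown libraries and 46.9, 46.7, 47.9 and 46.3 CPM in truncation scramble libraries. ATP6V1H in WT cells had 36.4, 44.6, 39.0 and 41.5 CPM with knockdown and 39.3, 39.4, 44.9 and 38.8 CPM with scramble. Genotypes overlapped with knockdown and were separated with scramble. ATP6V1H, a regulatory subunit, rose by 0.21 ± 0.066 and 0.20 ± 0.066 in truncation against WT cells with knockdown and with scramble (edgeR adjusted p = 0.0118 and 0.0194). Several of these calls were lost without 1 library: ATP6V1A on knockdown in truncation cells without truncation knockdown replicate 3 or truncation scramble replicate 4 (edgeR adjusted p up to 0.0735) and in WT cells without WT knockdown replicate 3 or WT scramble replicate 1 (0.0980), ATP6V0D1 on knockdown in WT cells without WT knockdown replicate 2 or 4 or WT scramble replicate 2 or 3 (0.0813) and between genotypes with scramble without WT scramble replicate 2 or 3 (0.0764), and ATP6V1H between genotypes without WT scramble replicate 1, 2 or 4 (0.0566) or, with knockdown, without WT knockdown replicate 1 or truncation knockdown replicate 1 (0.0809).

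Of the RAB7 GTPases, RAB7A drives fusion of late endosomes and autophagosomes with lysosomes, and RAB7B acts on transport between endosomes and the Golgi; RAB7B had the largest genotype effect of all members. RAB7B had 5.75, 5.15, 5.64 and 4.90 CPM in truncation knockdown libraries and 5.22, 4.83, 4.89 and 4.98 CPM in truncation scramble libraries. RAB7B in WT cells had 1.23, 1.503, 1.08 and 1.15 CPM with knockdown and 0.453, 0.698, 0.382 and 0.572 CPM with scramble. RAB7B (ENSG00000276600, chromosome 1, 205976740 to 206003461, minus strand) was high in all truncation libraries, at low levels throughout. The fold over WT was 4.34 with knockdown (2.12 ± 0.14, edgeR adjusted p = 6.53e-12) and 9.31 with scramble (3.22 ± 0.16, adjusted p = 4.06e-14). The knockdown value was 0.14 ± 0.12 in truncation cells, with overlap (adjusted p = 0.325), and in WT cells knockdown raised it, without overlap (1.24 ± 0.20, adjusted p = 9.07e-06). The interaction of -1.10 ± 0.23 was called (edgeR adjusted p = 0.00490) and stayed called in 22 of 22 alternatives. RAB7A rose on knockdown by 0.28 ± 0.046 in truncation and 0.16 ± 0.046 in WT cells, and was 0.16 ± 0.046 between genotypes with knockdown and 0.044 ± 0.046, not called, with scramble.

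Levels of different members were compared as CPM per kilobase of exonic length. This length merges all annotated exons of a gene and can exceed that of a transcript, for SQSTM1 7654 against 2986 bases. The ranks therefore depend on the annotation. In WT scramble cells RAB7A was highest with 142, followed by CTSZ with 84.9, LAMP1 with 59.3, CTSB with 53.5, GAA with 33.4 and SQSTM1 with 33.1 CPM per kilobase. In truncation scramble cells SQSTM1 was 3rd with 68.0, CTSD 6th with 38.1 and GABARAPL1 7th with 37.8 CPM per kilobase, where their ranks in WT scramble cells were 6, 17 and 19. GAA ranked 10th in truncation scramble cells and 5th in WT scramble cells. Summed over the ATG8 family, the level was 456 ± 29.6 CPM in truncation knockdown, 365 ± 9.49 CPM in truncation scramble, 240.4 ± 13.1 CPM in WT knockdown and 192 ± 5.13 CPM in WT scramble cells (SD, n = 4 each).

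Pathway genes outside the members were taken from a list. Of 140 further autophagy and lysosome genes listed, 135 were in the table and 133 tested. In truncation against WT cells 58 (43.6%) were called higher and 17 (12.8%) lower with knockdown, against 21.9% and 23.6% of all genes, and 57 (42.9%) and 16 (12.03%) with scramble, against 21.6% and 22.4%. On knockdown 61 (45.9%) were called higher and 33 (24.8%) lower in truncation cells, against 28.7% and 28.1% of all genes, and 58 (43.6%) and 33 (24.8%) in WT cells, against 25.2% and 25.1%. The shares called lower on knockdown were thus near those of all genes. The interaction was called higher for 2 (1.504%) and lower for 8 (6.02%), against 2.05% and 3.65% of all genes. With scramble the largest rises in truncation cells were those of ATP6V0A4, a tissue-specific V-ATPase subunit (2.65 ± 0.27), SCPEP1, a serine carboxypeptidase (1.21 ± 0.055), and PSAP, prosaposin, the precursor of sphingolipid activators (1.16 ± 0.049). The same 3 led with knockdown (1.25 ± 0.24, 1.05 ± 0.054 and 0.98 ± 0.049; largest edgeR adjusted p = 0.000126). ATP6V0A4 averaged 1.64 ± 0.252 CPM in truncation knockdown, 1.91 ± 0.237 CPM in truncation scramble, 0.693 ± 0.151 CPM in WT knockdown and 0.297 ± 0.145 CPM in WT scramble cells (SD, n = 4 each), a low level. Among called genes the largest falls with scramble were CTSS, cathepsin S (-2.71 ± 0.86), and ATP6V1C2, a V-ATPase subunit (-1.07 ± 0.19). CTSK, cathepsin K (-0.85 ± 0.15), came next, and a gene that was not called was at -1.38. CTSS rested on WT scramble replicate 4, which had 6.29 CPM against 0.0694 to 0.279 CPM in the other 3 WT scramble libraries; without it the value was 0.46 (edgeR adjusted p = 0.571). With knockdown the largest falls were BNIP3, a mitophagy receptor (-0.88 ± 0.16), MTOR, the kinase of mTORC1 (-0.83 ± 0.067), and SORT1, a sorting receptor (-0.75 ± 0.078; largest adjusted p = 5.78e-05).

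On knockdown, the 35 tested hydrolases and activators outside the members moved both ways. In truncation cells 15 (42.9%) were called higher and 13 (37.1%) lower, against 28.7% and 28.1% of all genes. In WT cells 14 (40%) were called higher and 15 (42.9%) lower, against 25.2% and 25.1%. Their median log2 fold changes were 0.056 in truncation and 0.064 in WT cells, against -0.31 and -0.18 for the 8 member hydrolases. In truncation cells PLBD2, a phospholipase B-like protein (-1.55 ± 0.079), TPP1, tripeptidyl peptidase (-1.52 ± 0.072), and MAN2B1, lysosomal alpha-mannosidase (-1.32 ± 0.075), had the largest falls (largest edgeR adjusted p = 2.63e-13). In WT cells TPP1 (-1.17 ± 0.071) and PLBD2 (-1.16 ± 0.079) fell as well, and CTSS was at -2.52 ± 0.85, which became 0.65 (adjusted p = 0.379) without WT scramble replicate 4. The largest rises in truncation cells were TFEC, a MiT/TFE factor (2.19 ± 0.77, adjusted p = 0.0184), CTSK (1.45 ± 0.14) and CTSO, cathepsin O (1.15 ± 0.20). TFEC was lost without truncation scramble replicate 3 or truncation knockdown replicate 3 (1.64, adjusted p = 0.107 without that one). In WT cells CTSO (1.26 ± 0.22) and ATP6V0A4 (1.22 ± 0.31) were among the largest rises (largest adjusted p = 0.00197). The interaction reached 2.35 in genes that were not called. Among called genes it was most positive for CTSK (0.77 ± 0.20) and SMPD1, acid sphingomyelinase (0.43 ± 0.13). The most negative called values were those of ATP6V0A4 (-1.40 ± 0.38), SORT1 (-0.43 ± 0.11) and PLBD2 (-0.39 ± 0.11). Of these calls only that of SORT1 held in all 16 fits that leave out 1 library; the highest edgeR adjusted p was 0.120 for SMPD1 without truncation scramble replicate 4 (lost in 12 fits), 0.0818 for PLBD2 without WT scramble replicate 1 (lost in 8), 0.0639 for CTSK without truncation scramble replicate 1 (also lost without replicate 3) and 0.0603 for ATP6V0A4 without WT scramble replicate 2 (also lost without replicate 4 of WT scramble or of WT knockdown).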

How the data were processed

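The deposited raw counts per gene and a deposited table of TMM-scaled CPM (counts per 1000000, a normalized signal) from the authors were used; recomputing TMM-scaled CPM from the counts gave the deposited values (largest relative difference 4.99e-15). The submitters' processing notes name STAR 2.7.3a, edgeR, limma, DESeq2 and hg38 without role or order. How reads were counted, by which annotation and with which strand setting is not given in the sources used here.

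Counts of all 60668 genes, 43699 of them with at least 1 count, were filtered with filterByExpr over the 4 groups, which left 17104 genes and 99.8% or more of each library's counts. They were scaled by TMM and fitted in R 4.3.3 with edgeR 4.0.16 (glmQLFit and glmQLFTest, two-sided, 1 coefficient per group, all 16 libraries, 12 residual degrees of freedom, common biological coefficient of variation 7.25%). P-values were adjusted over all tested genes by Benjamini-Hochberg and called under 0.05. Scripts were tested on simulated data. Levels are TMM-scaled CPM in replicate order 1 to 4, "±" is the SE of a log2 fold change and the SD of a level, and positions are GRCh38 from a GENCODE annotation.

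Alternatives were DESeq2 1.42.0, other scalings, no filter on low counts, a replicate block, only the 2 groups compared, and fits without 1 library or without WT knockdown replicates 2 and 3. The members and the lists were chosen with earlier results of these data known. Values of every library are given for up to 3 members per role with the largest change between genotypes in scramble cells, the members called in the interaction, and the 4 with the largest change in each knockdown comparison; of other pathway genes, the 3 highest and 3 lowest called per comparison are named, except 1 that is not reported here. CTSF, ATP6V0D2, MAP1LC3C, GALC, CD68 and CDX1 were not analysed here, and ACP5 and ATP6V1B1 were not tested.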

Additional observations from a re-analysis of the deposited data

Results flagged for a closer look

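For each of the 49 members the highest and lowest library of each group of 4 were compared with the other 3 by Dixon's ratio. Of 196 groups 11 had a library past the 95% critical value, and chance alone gives about 1 in 20. In truncation knockdown cells GLA was high in replicate 2 (61.14 CPM, against 56.42 to 57.15 in the others). In truncation scramble cells CTSD was high in replicate 4 (127.3 CPM, others 115.6 to 117.4), ATG3 was high in replicate 4 (50.39 CPM, others 48.73 to 48.99) and GABARAP was high in replicate 1 (0.3851 CPM, others 0.1358 to 0.1731, all at a few counts). In WT knockdown cells ULK1 was low in replicate 2 (39.95 CPM, others 49.25 to 50.27), and BECN1 (37.25 CPM, others 43.96 to 44.79) and ATG7 (30.19 CPM, others 34.99 to 35.61) were low in replicate 3. In WT scramble cells ATG12 (155.2 CPM, others 140.7 to 141.4), RRAGD (30.7 CPM, others 29.13 to 29.3) and ATP6V1H (44.85 CPM, others 38.82 to 39.42) were high in replicate 3, and GABARAP was low in replicate 1 (0.1742 CPM, others 0.2428 to 0.2502).

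The knockdown effect differed between truncation and WT cells, by the interaction test, for 2 members: ATG12 (difference of the log2 fold changes 0.3416) and RAB7B (-1.102). That is 2.13% of tested members called higher and 2.13% lower, against 2.05% and 3.65% of all genes. The ATG12 call was lost in 6 of the fits that leave out 1 library.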

How the results depend on the processing

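No member changed direction while called under any alternative run. Without 1 library at a time, 7061 to 8080 genes were called for the genotype with knockdown, 6628 to 8036 with scramble, 9113 to 10087 for knockdown in truncation cells, 7876 to 8736 in WT cells and 653 to 1661 for the interaction. The members called higher and lower then numbered 27 to 29 and 1 to 4 for the genotype with knockdown, 22 to 26 and 1 to 4 with scramble, 16 to 18 and 12 to 14 for knockdown in truncation cells, 16 to 19 and 9 to 12 in WT cells, and 0 to 2 and 1 to 2 for the interaction. The 2 members called lower for the genotype with scramble became 1 under RLE scaling and without a filter on low counts, 4 under upper-quartile scaling and without WT knockdown replicates 2 and 3, and 5 in a fit of the 2 groups compared; the 4 with knockdown became 1 in that fit. The interaction was called for 974 genes, for 1475 by DESeq2 and for 1642 without WT knockdown replicates 2 and 3; members called higher in it numbered 2, not 1, by DESeq2, with the replicate block and under upper-quartile scaling, NBR1 being the added member, and members called lower numbered 3, not 1, without those replicates. Upper-quartile scaling gave 502 higher and 397 lower interaction calls (55.8% higher), against 350 and 624 (35.9%). For the genotype with scramble it gave 3084 higher and 4561 lower (40.3% higher), against 3692 and 3837 (49.0%). For knockdown in truncation cells it gave 5645 and 4247 (57.1%), against 4904 and 4802 (50.5%). Members called higher and lower were then 22 and 4 with scramble, against 26 and 2. For that knockdown they were 20 and 10, against 18 and 12. The cause was not tested. A fit of the 2 groups compared gives no interaction.

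Same-numbered libraries did not deviate together (correlations -0.0837 to 0.164; 6 of 16 libraries correlated best with their own number). With the replicate block 7926, 7704, 9858, 8755 and 1150 genes were called, in the order above, against 7783, 7529, 9706, 8604 and 974 without it. GABARAP and MAP1LC3A had too few counts in the table to be tested; the part of overlapping genes in the GABARAP count was not tested.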
